A study of Arabidopsis thaliana with 24 samples.

Results

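UDP-glycosyltransferase (UGT) genes of Arabidopsis thaliana were followed across 4 genotypes and 2 conditions. A gene was taken when the platform table names one of its probe sets with a symbol made of UGT and a family number, and a gene with several probe sets was read from the one that was brightest on average. This gave 51 genes in 12 numbered families, of 16554 genes with a named probe set. All 51 were found in the reference gene table. Families 71 and 73 hold 10 members each, family 76 holds 8, family 85 holds 5, families 72 and 84 hold 4 each, and families 74 and 78 hold 3 each. Families 80, 87, 88 and 89 have 1 member each.

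The plants were 3 weeks old and of the Col-0 ecotype throughout. They were brm-1 hd2c-3 double mutants, brm-1 mutants, hd2c-3 mutants and wild type (WT). Each genotype was sampled after 1 h at 38 °C (heat) and without that treatment (control), with 3 Affymetrix arrays in each of the 8 groups and 24 arrays in all. BRM encodes the ATPase of a SWI/SNF chromatin remodelling complex and HD2C encodes a histone deacetylase of a plant-specific type. No probe set is named for either gene, so the mutant labels were not checked against their transcripts, and each mutant stands for a single named allele.

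UGT enzymes move a sugar from a nucleotide sugar onto small molecules, and the acceptor gains solubility, a different transport route or a storage form. In plants the acceptors include hormones such as auxin, cytokinin, abscisic acid and salicylic acid, phenylpropanoids such as sinapate and the monolignols, flavonoids, sterols and foreign compounds. The family number groups proteins by sequence, and the letter and last number name a subfamily and a gene. Many members lie side by side in the genome as copies of one another.

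The deposited values are log2 intensities, and the array medians lay between 3.42 and 3.65. The replicates of a group correlated at 0.981 or more over the 16554 genes with a named probe set, and no 2 arrays were identical. The median SD of a gene within a group ranged between 0.134 and 0.212. The submitters state that the biological replicates were picked for similar levels of selected marker genes, so the spread between arrays may understate that between plants. The labels name plants without an organ, and of the tissue markers only the root gene EXPA7 has a named probe set, so the sampled tissue was not checked. Levels are log2 intensities, and every difference below is on the log2 scale with its SE unless a fold is stated. A difference was called when limma's Benjamini-Hochberg adjusted p over all 16554 genes was under 0.05.

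Between genotypes, UGT genes were called wherever a genotype with brm-1 was set against one without it. In control, brm-1 differed from WT in 14 UGT genes, of which 5 were higher and 9 lower, while 4.26% of all genes were called there, 2.22% higher and 2.04% lower. The double mutant differed from hd2c-3 in 7 UGT genes in control, 0 higher and 7 lower, beside 3.28% of all genes called, 1.61% higher and 1.67% lower. It differed from WT in 7 UGT genes in control, again 0 higher and 7 lower, beside 3.12% of all genes called, 1.53% higher and 1.59% lower. These were the same 7 genes, and both comparisons use the double mutant's arrays. In heat, brm-1 differed from WT in 11 UGT genes (2 higher, 9 lower), beside 5.1% of all genes called, 2.79% higher and 2.31% lower. The double mutant differed from hd2c-3 in 14 UGT genes in heat (5 higher, 9 lower), beside 5.03% of all genes called, 3.01% higher and 2.02% lower. It differed from WT in 14 UGT genes in heat (6 higher, 8 lower), beside 9.35% of all genes called, 5.15% higher and 4.2% lower. As shares of the 51 members these counts are 27.5%, 13.7% and 13.7% in control, and 21.6%, 27.5% and 27.5% in heat. The median UGT difference stayed near that of all genes, at -0.02 against -0.01 for brm-1 against WT in control and -0.07 against -0.01 in heat. Leaving out single arrays lowered the control count of 14 to 9 without brm-1 control replicate 2 or 3. The heat count of 11 fell to 6 without brm-1 heat replicate 2 and to 7 without WT heat replicate 3, and the heat count of 14 for the double mutant against WT fell to 9 without brm-1 hd2c-3 heat replicate 3. With only the arrays of the groups compared in the fit, the heat counts of 14 fell to 4 for the double mutant against hd2c-3 and to 8 for it against WT.

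Heat itself changed UGT genes in both directions in every genotype. In brm-1 hd2c-3 the calls numbered 15 (8 higher, 7 lower), beside 21.5% of all genes called, 9.38% higher and 12.1% lower. In brm-1 they numbered 16 (6 higher, 10 lower), beside 15.8% of all genes, 7.28% higher and 8.51% lower. In hd2c-3 they numbered 15 (9 higher, 6 lower), beside 20% of all genes, 8.87% higher and 11.2% lower. In WT they numbered 12 (5 higher, 7 lower), beside 13.3% of all genes, 5.81% higher and 7.48% lower. As shares of the members these are 29.4%, 31.4%, 29.4% and 23.5%. The brm-1 count fell to 10 without brm-1 control replicate 3, and the WT count fell to 7 without WT control replicate 3. Over all comparisons, 26 of the 51 members (51%) were called in a heat response, against 33.9% of all genes. Of the members, 22 (43.1%) were called in a comparison of genotypes, against 16.6% of all genes, and 23 (45.1%) were called in none, against 62.3%. These shares were not tested against each other, and members of a family can share sequence.

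**Figure D1:**
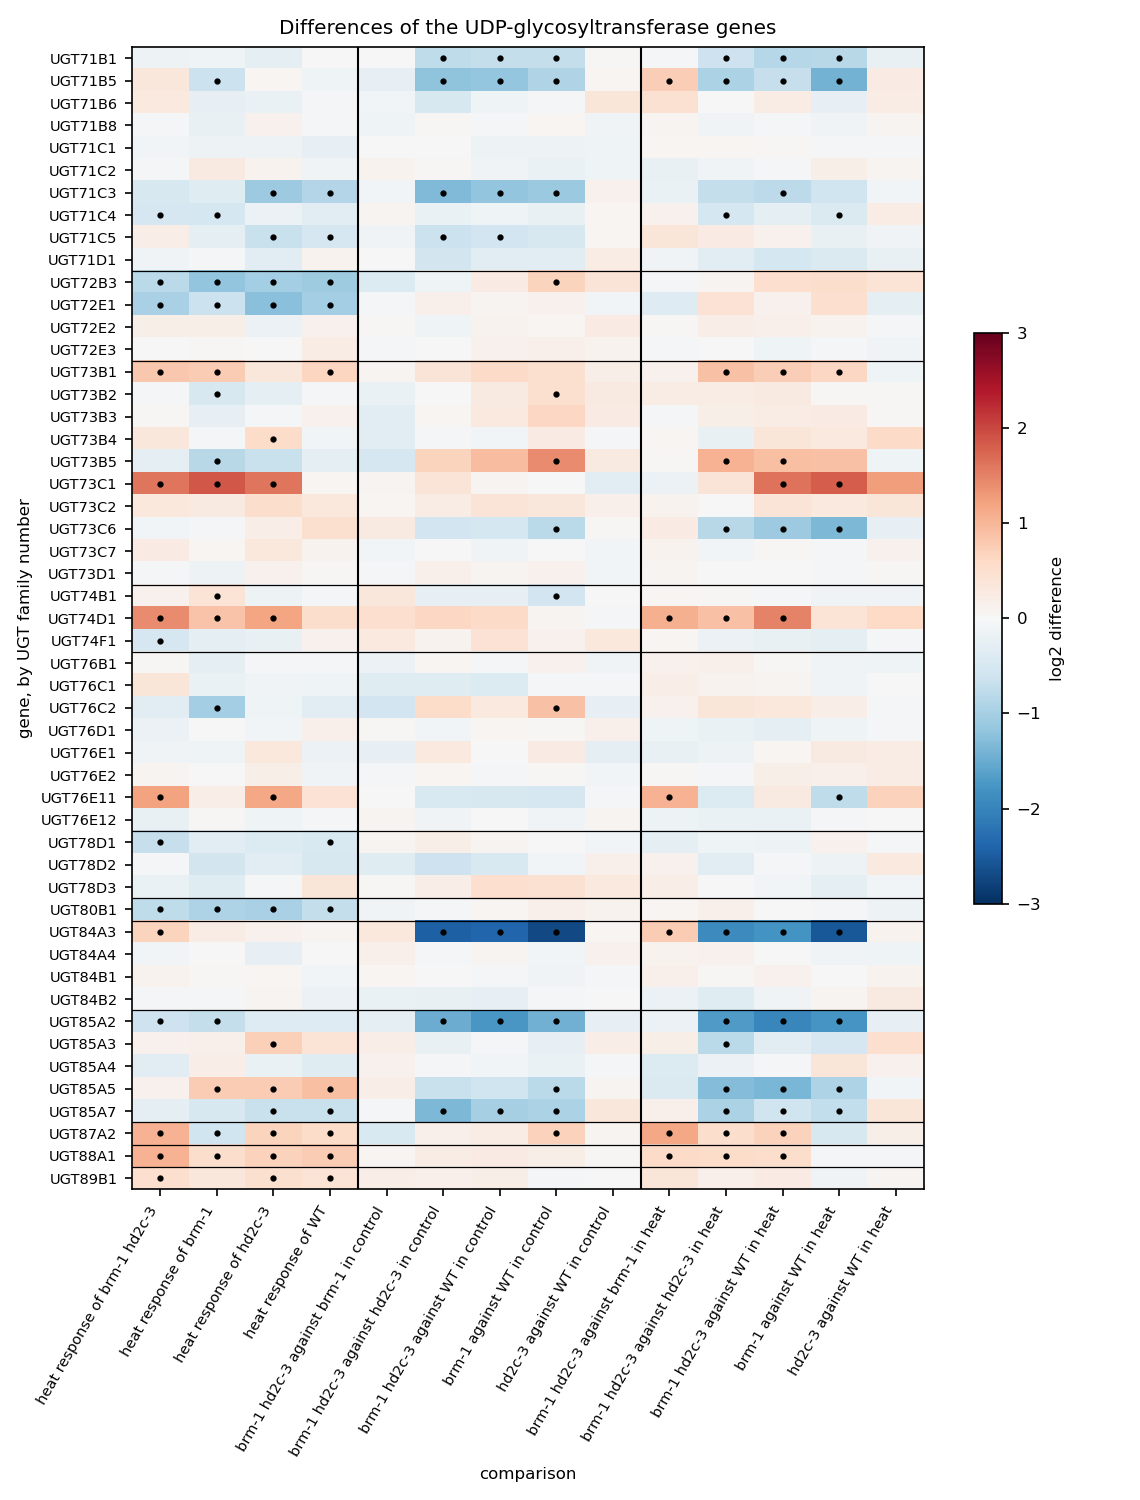
Colours show the log2 difference of each of the 51 UGT genes (rows, ordered by family number, with lines between families) in 14 comparisons (columns), and a black point marks a call at an adjusted p under 0.05. Blue runs through UGT84A3, UGT85A2, UGT85A7, UGT71B1 and UGT71B5 wherever a genotype with brm-1 is set against one without it.

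Family 84 holds the gene with the largest difference among the members. UGT84A3 (AT4G15490) encodes an enzyme that makes glucose esters of hydroxycinnamic acids such as sinapate. Its control level was 2.71, 2.77 and 2.82 in brm-1 hd2c-3, 2.15, 2.80 and 2.38 in brm-1, 5.21, 5.30 and 5.12 in hd2c-3, and 5.01, 5.05 and 5.36 in WT. Both genotypes with brm-1 lay below both genotypes without it on every array. In heat its level was 3.73, 3.21 and 3.37 in brm-1 hd2c-3, 2.75, 2.58 and 2.71 in brm-1, 5.35, 5.30 and 5.38 in hd2c-3, and 5.42, 5.23 and 5.04 in WT. The same separation held after heat, with the double mutant above brm-1 on every array. In control the difference was -2.70 ± 0.15 for brm-1 against WT, a 6.48-fold lower intensity (adjusted p = 2.54e-10), and -2.45 ± 0.15 for the double mutant against hd2c-3 (adjusted p = 1.92e-09). In heat these were -2.55 ± 0.15 (adjusted p = 3.9e-10) and -1.91 ± 0.15 (adjusted p = 3.9e-08). In RNA from mixed cells, fewer cells that make a transcript and less of it per cell cannot be told apart.

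UGT84A3 rose with heat in the double mutant, by 0.67 ± 0.15 (adjusted p = 0.00231). The heat differences in the other genotypes were 0.23 ± 0.15 in brm-1, 0.14 ± 0.15 in hd2c-3 and 0.09 ± 0.15 in WT, none of them called. The responses of the double mutant and WT were 0.58 ± 0.22 apart, which was not called either. After heat, UGT84A3 was 0.76 ± 0.15 higher in the double mutant than in brm-1 (adjusted p = 0.00464). That call was lost when only those 6 arrays were fitted (adjusted p = 0.0899). UGT84A4 is the next UGT gene on the chromosome and differed by -0.07 between brm-1 and WT in control. UGT84B1, which forms the glucose ester of the auxin indole-3-acetic acid, differed by -0.12, and UGT84B2 by -0.04. None of these 3 genes was called in any comparison, and all have a mean level below that of the median gene.

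In family 85, UGT85A2 and UGT85A7 were called lower in all 4 comparisons of brm-1 with WT and of the double mutant with hd2c-3, in control and in heat. UGT85A7, UGT85A2, UGT85A5 and UGT85A3 follow each other on chromosome 1. The differences of UGT85A5 and UGT85A3 were negative in these comparisons, and 3 of 4 were called for UGT85A5 and 1 of 4 for UGT85A3. UGT85A2 (AT1G22360) had control levels of 5.34, 5.71 and 5.29 in brm-1 hd2c-3, 5.51, 5.74 and 5.99 in brm-1, 6.90, 7.02 and 6.90 in hd2c-3, and 6.91, 7.20 and 7.47 in WT. Its heat levels were 4.75, 4.87 and 4.89 in brm-1 hd2c-3, 5.20, 4.99 and 4.88 in brm-1, 7.08, 6.30 and 6.25 in hd2c-3, and 6.72, 6.91 and 6.75 in WT. Within each condition, every array with brm-1 was below every array without it. The difference was -1.45 ± 0.18 for brm-1 against WT in control (adjusted p = 2.57e-05) and -1.77 ± 0.18 in heat (adjusted p = 1.63e-06). For the double mutant against hd2c-3 it was -1.49 ± 0.18 in control (adjusted p = 2.55e-05) and -1.70 ± 0.18 in heat (adjusted p = 2.98e-06).

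UGT85A7 (AT1G22340) had control levels of 2.20, 1.99 and 2.19 in brm-1 hd2c-3, 2.32, 2.25 and 1.98 in brm-1, 3.34, 3.58 and 3.49 in hd2c-3, and 3.47, 3.07 and 2.83 in WT. The groups with and without brm-1 did not overlap. In control the difference was -0.94 ± 0.18 for brm-1 against WT (adjusted p = 0.00229) and -1.34 ± 0.18 for the double mutant against hd2c-3 (adjusted p = 7e-05). In heat these values were -0.75 ± 0.18 (adjusted p = 0.0132) and -0.95 ± 0.18 (adjusted p = 0.00195), and the first was lost without brm-1 heat replicate 2 (adjusted p = 0.0978) or WT heat replicate 3 (adjusted p = 0.108), and with only the arrays compared in the fit (adjusted p = 0.0859). UGT85A5 combined a heat response with a lower level in brm-1. Its heat difference was 0.77 ± 0.23 in brm-1, 0.76 ± 0.23 in hd2c-3 and 0.91 ± 0.23 in WT, all called, and 0.13 ± 0.23 in the double mutant, not called. In heat its difference was -0.94 ± 0.23 for brm-1 against WT (adjusted p = 0.0148) and -1.30 ± 0.23 for the double mutant against hd2c-3 (adjusted p = 0.000913). The first was lost without brm-1 heat replicate 2 (adjusted p = 0.0683), WT heat replicate 1 (adjusted p = 0.0515) or WT heat replicate 3 (adjusted p = 0.0591), and the second with only the arrays compared in the fit (adjusted p = 0.0515). In control UGT85A5 differed by -0.68 ± 0.23 in the double mutant against hd2c-3, which was not called (adjusted p = 0.139). Several UGT85A5 calls were near the threshold: the 3 heat responses were lost without at least 1 single array each, at adjusted p values between 0.0546 and 0.145, and its control call for brm-1 against WT (-0.80 ± 0.23, adjusted p = 0.0491) was lost in 9 of 14 alternatives. UGT85A3 was called lower in the double mutant than in hd2c-3 in heat (-0.82 ± 0.17, adjusted p = 0.00403), a call lost with only the arrays compared in the fit (adjusted p = 0.13). Its other 3 differences were -0.22 ± 0.17 for the double mutant against hd2c-3 in control, and -0.24 ± 0.17 in control and -0.50 ± 0.17 in heat for brm-1 against WT. UGT85A4, which lies apart from the run, was called in no comparison.

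**Figure D2:**
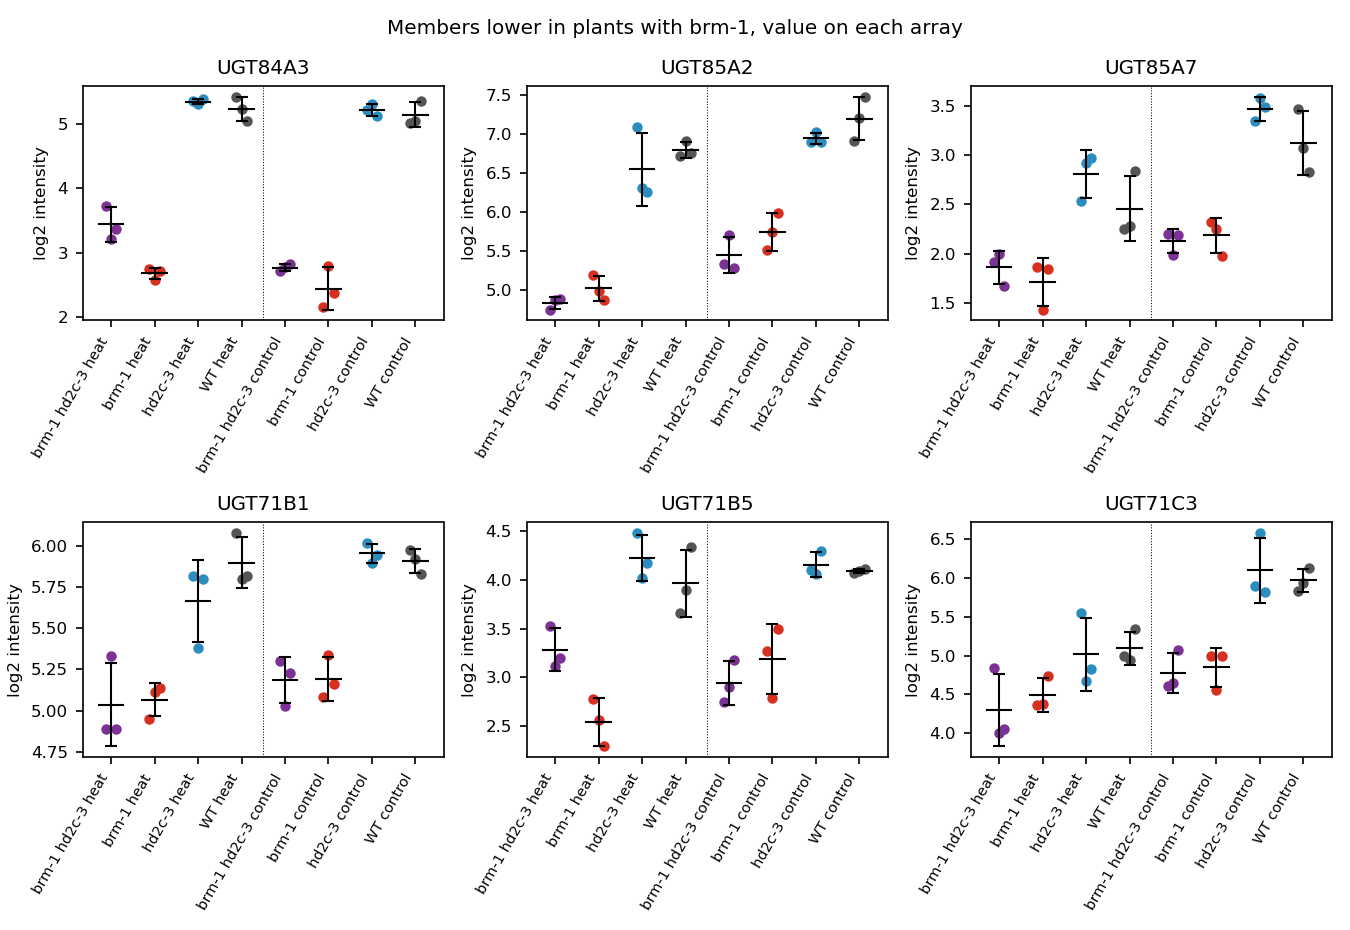
Log2 intensity on each array (points) with the group mean and SD (bars, 3 arrays a group) for 6 UGT genes, with heat to the left of the dotted line and control to the right. For UGT84A3, the arrays of brm-1 hd2c-3 and brm-1 lie between 2.15 and 3.73 and those of hd2c-3 and WT between 5.01 and 5.42.

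Family 71 contained a further pair of genes that were lower in all 4 of these comparisons. UGT71B1 (AT3G21750) had control levels of 5.30, 5.03 and 5.23 in brm-1 hd2c-3, 5.08, 5.34 and 5.16 in brm-1, 6.02, 5.90 and 5.95 in hd2c-3, and 5.98, 5.92 and 5.83 in WT. The groups with and without brm-1 did not overlap. The difference was -0.71 ± 0.14 for brm-1 against WT (adjusted p = 0.00269) and -0.77 ± 0.14 for the double mutant against hd2c-3 (adjusted p = 0.00172) in control, and -0.83 ± 0.14 (adjusted p = 0.000491) and -0.63 ± 0.14 (adjusted p = 0.00728) in heat. The last of these was lost with only the arrays compared in the fit (adjusted p = 0.202). UGT71B5 (AT4G15280) had heat levels of 3.53, 3.11 and 3.20 in brm-1 hd2c-3, 2.78, 2.56 and 2.29 in brm-1, 4.48, 4.02 and 4.17 in hd2c-3, and 3.66, 3.90 and 4.34 in WT. Each array with brm-1 was below each array without it, and brm-1 was below the double mutant. The heat difference of UGT71B5 was -1.43 ± 0.19 for brm-1 against WT (adjusted p = 3.53e-05) and -0.94 ± 0.19 for the double mutant against hd2c-3 (adjusted p = 0.00326). In control these were -0.91 ± 0.19 (adjusted p = 0.00484) and -1.22 ± 0.19 (adjusted p = 0.000414), and the first was lost without brm-1 control replicate 2 (adjusted p = 0.0525).

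The remaining called members of family 71 lie next to each other on chromosome 1. UGT71C3, known as a glucosyltransferase of methyl salicylate, had control levels of 4.61, 4.65 and 5.07 in brm-1 hd2c-3, 5.0, 4.56 and 4.99 in brm-1, 5.90, 6.58 and 5.82 in hd2c-3, and 5.84, 5.94 and 6.13 in WT. The control groups with brm-1 were below those without it on every array. The difference was -1.32 ± 0.24 for the double mutant against hd2c-3 (adjusted p = 0.00175) and -1.12 ± 0.24 for brm-1 against WT (adjusted p = 0.00618). The second call was lost without brm-1 control replicate 2 (adjusted p = 0.0516). In heat neither was called, at -0.72 ± 0.24 for the double mutant against hd2c-3 (adjusted p = 0.0938) and -0.60 ± 0.24 for brm-1 against WT. In heat the arrays of hd2c-3 (4.67 to 5.55) overlapped those of the double mutant (4.0 to 4.84). UGT71C3 fell with heat in hd2c-3 (-1.08 ± 0.24, adjusted p = 0.00206) and in WT (-0.88 ± 0.24, adjusted p = 0.0162), while the differences of -0.48 ± 0.24 in the double mutant and -0.36 ± 0.24 in brm-1 were not called. Neither genotype was called as different from WT in this response (0.40 ± 0.34 for the double mutant and 0.52 ± 0.34 for brm-1). The WT heat call was lost without WT control replicate 3 (adjusted p = 0.0728), WT heat replicate 1 (adjusted p = 0.0555) or WT heat replicate 2 (adjusted p = 0.0681). UGT71C5, which glucosylates abscisic acid, had calls of -0.64 ± 0.15 for the double mutant against hd2c-3 in control (adjusted p = 0.0163), -0.68 ± 0.15 for heat in hd2c-3 (adjusted p = 0.00226) and -0.50 ± 0.15 for heat in WT (adjusted p = 0.03). Unlike UGT71C3, it was not called for brm-1 against WT in control (-0.47 ± 0.15, adjusted p = 0.0867). The UGT71C5 control call was lost without brm-1 hd2c-3 control replicate 1 (adjusted p = 0.147) or hd2c-3 control replicate 2 (adjusted p = 0.124). UGT71C4, between these 2 genes, fell with heat in the double mutant (-0.50 ± 0.12, adjusted p = 0.00387) and in brm-1 (-0.53 ± 0.12, adjusted p = 0.00298). In heat it was called lower in the double mutant than in hd2c-3 (-0.52 ± 0.12, adjusted p = 0.0111), a call lost without brm-1 hd2c-3 heat replicate 2 (adjusted p = 0.0732) and with only the arrays compared in the fit (adjusted p = 0.232). It was also called lower in brm-1 than in WT in heat (-0.43 ± 0.12, adjusted p = 0.0381), which was lost in 8 of 14 alternatives. UGT71B6 and UGT71B8, which act on abscisic acid, were called in no comparison, and neither were UGT71C1, UGT71C2 and UGT71D1.

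Several UGT genes were lower with brm-1 both in plants with hd2c-3 and in plants without it. UGT84A3, UGT85A2, UGT85A7, UGT71B1 and UGT71B5 were called lower in all 4 comparisons, brm-1 against WT and the double mutant against hd2c-3, each in control and in heat. With only the arrays compared in the fit, UGT71B1 lost its heat call in the double mutant against hd2c-3 and UGT85A7 its heat call in brm-1 against WT. Among all genes, 0.447% were called lower in all 4 and 0.489% higher in all 4, and no UGT gene was among the second group. The comparison of brm-1 with WT and that of the double mutant with hd2c-3 share no array. Across the 51 UGT genes their differences correlated at r = 0.897 in control and 0.821 in heat, and at 0.847 and 0.772 without UGT84A3. Over all genes r was 0.558 in control and 0.468 in heat. These correlations run across genes measured on the same arrays, and genes are not independent replicates. In control, 6 UGT genes were called the same way in both comparisons, which is 42.9% of the 14 for brm-1 against WT and 85.7% of the 7 for the double mutant against hd2c-3. The same shares over all genes were 43.4% and 56.4%. In heat, 9 UGT genes were called the same way in both, 8 of them lower, which is 81.8% of 11 and 64.3% of 14, against 39.2% and 39.7% over all genes. No UGT gene was called in opposite directions. In heat, however, the differences of UGT87A2 had opposite signs. At -0.47, that for brm-1 against WT was not called (adjusted p = 0.0543), though it was in 3 of 14 alternatives. That for the double mutant against hd2c-3 was called at 0.52 (adjusted p = 0.0322), and this call was lost in 7 of 14 alternatives.

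**Figure D3:**
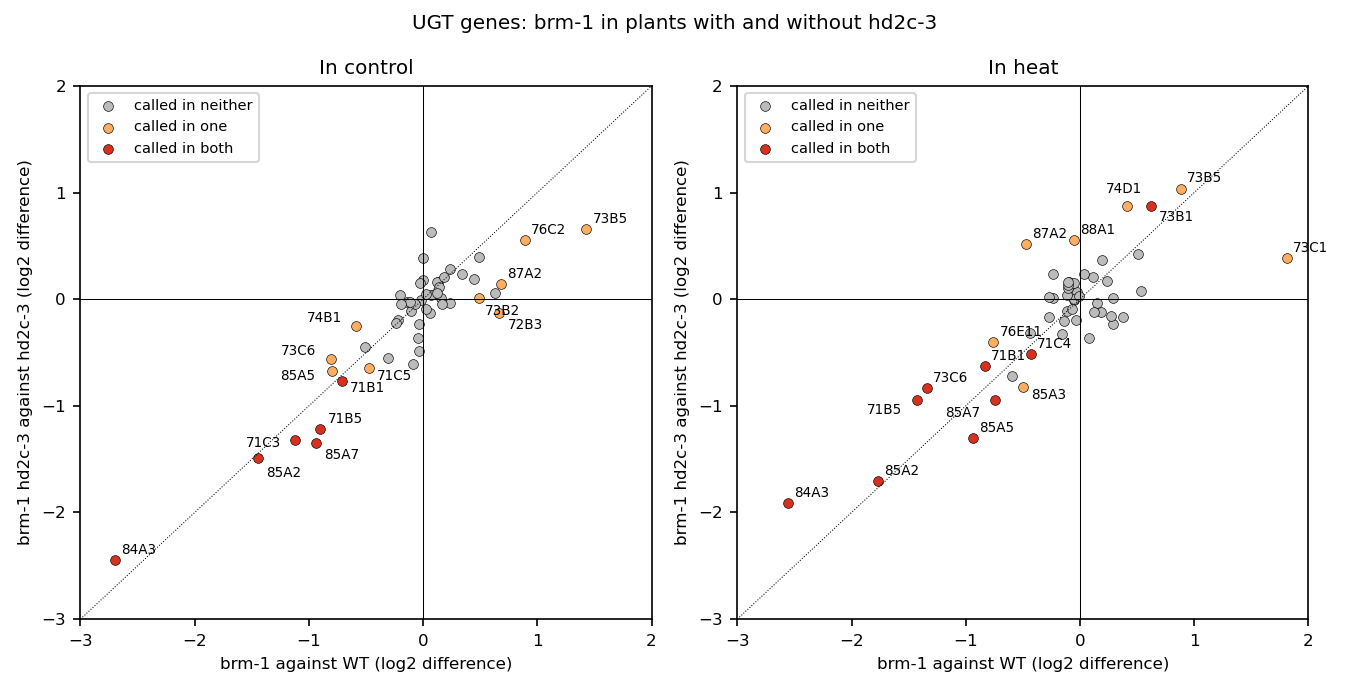
Each point is a UGT gene, with the log2 difference of brm-1 against WT on the horizontal axis and that of brm-1 hd2c-3 against hd2c-3 on the vertical axis, in control (left) and in heat (right). The 2 differences correlate at r = 0.897 in control and 0.821 in heat, and the dotted line marks equal differences. Genes off the line include UGT73C1 in heat, at 1.81 against 0.38, and UGT87A2 in heat, at -0.47 against 0.52. UGT72B3 lies off it in control, at 0.67 against -0.13.

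Family 73 differed in both directions. UGT73B5, which acts in the response to bacterial infection, had control levels of 3.56, 3.65 and 4.16 in brm-1 hd2c-3, 4.25, 4.54 and 4.11 in brm-1, 3.42, 2.82 and 3.15 in hd2c-3, and 3.18, 2.56 and 2.88 in WT. Every brm-1 array was above every WT array. The difference for brm-1 against WT was 1.43 ± 0.26 in control (adjusted p = 0.00145). The others were not called in control, at 0.66 ± 0.26 for the double mutant against hd2c-3 and 0.92 ± 0.26 for it against WT. In heat UGT73B5 was called higher in the double mutant, at 1.04 ± 0.26 against hd2c-3 (adjusted p = 0.0186) and 0.91 ± 0.26 against WT (adjusted p = 0.0268). These heat calls were lost in 4 and in 6 of the alternatives, at adjusted p values of up to 0.184 and 0.121. The heat difference for brm-1 against WT was of like size, at 0.88 ± 0.26, and just missed the threshold (adjusted p = 0.0516). In brm-1 UGT73B5 fell with heat by 0.84 ± 0.26 (adjusted p = 0.0304), a call lost in 5 of 13 alternatives. UGT73C6, a glucosyltransferase of flavonols, had heat levels of 2.83, 3.08 and 3.16 in brm-1 hd2c-3, 2.67, 2.84 and 2.80 in brm-1, 3.85, 3.62 and 4.10 in hd2c-3, and 4.45, 3.97 and 3.91 in WT. The arrays with brm-1 did not overlap those without it. In heat UGT73C6 differed by -1.34 ± 0.20 in brm-1 against WT (adjusted p = 0.000127). In the double mutant against hd2c-3 it differed by -0.83 ± 0.20 (adjusted p = 0.0114), a call lost without brm-1 hd2c-3 heat replicate 1 (adjusted p = 0.0539) or hd2c-3 heat replicate 3 (adjusted p = 0.0628). It was also lost with array weights (adjusted p = 0.0691) and with only the arrays compared in the fit (adjusted p = 0.0597). In control UGT73C6 was called lower in brm-1 than in WT (-0.81 ± 0.20, adjusted p = 0.0159), which was lost in 5 of 14 alternatives. The gene has 2 probe sets, and with their mean the control difference was -0.525 (adjusted p = 0.0786). UGT73B1 was higher in heat in the double mutant, by 0.87 ± 0.17 against hd2c-3 (adjusted p = 0.00283) and by 0.74 ± 0.17 against WT (adjusted p = 0.00631). The call against hd2c-3 was lost with only the arrays compared in the fit (adjusted p = 0.0622), and that against WT without brm-1 hd2c-3 heat replicate 3 (adjusted p = 0.0577). In heat UGT73B1 was also called higher in brm-1 than in WT (0.62 ± 0.17, adjusted p = 0.0354), a call lost in 7 of 14 alternatives. Its heat response was called in 3 of the 4 genotypes, among them brm-1 (0.77 ± 0.17, adjusted p = 0.00261) and WT (0.64 ± 0.17, adjusted p = 0.0141). The WT call was lost without WT control replicate 1 (adjusted p = 0.0526) or 3 (adjusted p = 0.0906).

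UGT73C1, which glucosylates cytokinins and detoxifies nitroaromatic compounds, rose with heat in the mutants. Its heat levels were 4.62, 5.21 and 4.62 in brm-1 hd2c-3, 4.64, 5.68 and 4.69 in brm-1, 4.08, 5.04 and 4.18 in hd2c-3, and 2.83, 3.32 and 3.42 in WT. Its control levels were 3.28, 3.29 and 3.06 in brm-1 hd2c-3, 3.12, 2.92 and 3.37 in brm-1, 3.43, 3.01 and 2.02 in hd2c-3, and 3.13, 3.18 and 3.09 in WT. Every heat array of a mutant was above every other array of the gene. The heat difference was 1.60 ± 0.30 in the double mutant (adjusted p = 0.000415), 1.87 ± 0.30 in brm-1 (adjusted p = 0.000126), 1.61 ± 0.30 in hd2c-3 (adjusted p = 0.00046) and 0.06 ± 0.30 in WT (adjusted p = 0.955). The differences of these responses from that of WT did not pass, at 1.55 ± 0.43 for the double mutant (adjusted p = 0.076), 1.81 ± 0.43 for brm-1 (adjusted p = 0.0853) and 1.55 ± 0.43 for hd2c-3 (adjusted p = 0.364). With array weights these were 1.63 (adjusted p = 0.0417) for the double mutant and 1.97 (adjusted p = 0.00979) for brm-1. Within heat, UGT73C1 was higher than in WT by 1.63 ± 0.30 in the double mutant (adjusted p = 0.000973) and by 1.81 ± 0.30 in brm-1 (adjusted p = 0.00052), and by 1.24 ± 0.30 in hd2c-3, which was not called (adjusted p = 0.0619). The neighbouring UGT73C2 was called in no comparison. UGT73B2 was called for brm-1, higher than in WT in control (0.49 ± 0.13, adjusted p = 0.0254) and lower after heat (-0.49 ± 0.13, adjusted p = 0.00821), and the control call was lost in 7 of 14 alternatives. UGT73B4 was called only for heat in hd2c-3 (0.54 ± 0.17, adjusted p = 0.0268).

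Families 74 and 76 include enzymes of hormone and glucosinolate metabolism. UGT76C2, which attaches glucose to cytokinins, had control levels of 2.91, 2.47 and 2.79 in brm-1 hd2c-3, 3.28, 3.31 and 3.34 in brm-1, 2.44, 2.0 and 2.07 in hd2c-3, and 2.40, 2.45 and 2.42 in WT. The brm-1 arrays were the highest of the 4 control groups. UGT76C2 was higher by 0.89 ± 0.19 in brm-1 than in WT in control (adjusted p = 0.00582), and in brm-1 it fell with heat by 1.02 ± 0.19 (adjusted p = 0.000465). Its paralogue and neighbour UGT76C1, also an enzyme of cytokinin conjugation, was called in no comparison. UGT74B1, the glucosyltransferase of glucosinolate synthesis, was lower in brm-1 than in WT in control (-0.58 ± 0.13, adjusted p = 0.00995), a call lost without brm-1 control replicate 3 (adjusted p = 0.0802). UGT74F1, which glucosylates salicylic acid, was called only for heat in the double mutant (-0.51 ± 0.15, adjusted p = 0.0187).

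UGT76E11 and UGT74D1 were called higher with heat in both genotypes with hd2c-3, and UGT74D1 also in brm-1. For neither gene was the heat response of any mutant called as different from that of WT. UGT76E11, a flavonoid glucosyltransferase, had heat levels of 6.16, 5.86 and 6.38 in brm-1 hd2c-3, 5.23, 5.21 and 4.86 in brm-1, 6.14, 6.73 and 6.74 in hd2c-3, and 5.73, 6.03 and 5.81 in WT. The brm-1 arrays were the lowest of the 4 heat groups. The heat difference was 1.21 ± 0.21 in the double mutant (adjusted p = 0.000148) and 1.16 ± 0.21 in hd2c-3 (adjusted p = 0.000258), and those of 0.19 ± 0.21 in brm-1 and 0.44 ± 0.21 in WT were not called. UGT76E11 was higher by 1.03 ± 0.21 in the double mutant than in brm-1 in heat (adjusted p = 0.00462). UGT74D1, an auxin glucosyltransferase, had heat levels of 5.07, 5.60 and 6.21 in brm-1 hd2c-3, 4.28, 4.77 and 4.61 in brm-1, 4.11, 4.93 and 5.21 in hd2c-3, and 3.98, 4.21 and 4.24 in WT. The double mutant lay above WT on every array and overlapped hd2c-3. UGT74D1 rose with heat by 1.43 ± 0.25 in the double mutant (adjusted p = 0.000181) and was 1.48 ± 0.25 higher there than in WT in heat (adjusted p = 0.000371). In WT its heat difference of 0.525 was not called (adjusted p = 0.202). With only the arrays compared in the fit, that difference was called (adjusted p = 0.0325). The gene has more than 1 probe set, and with their mean in its place the heat difference in the double mutant was 0.55 (adjusted p = 0.0403) and the heat call of 1.18 ± 0.25 in hd2c-3 was lost at 0.37 (adjusted p = 0.187). The heat call of 0.87 ± 0.25 in brm-1 was then lost at 0.55 (adjusted p = 0.0517), and also without brm-1 control replicate 2 (adjusted p = 0.115), brm-1 heat replicate 2 (adjusted p = 0.0877) or brm-1 heat replicate 3 (adjusted p = 0.0588).

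UGT87A2 (AT2G30140), the member of family 87 and a gene known for an effect on flowering time, responded to heat in opposite directions. Its heat levels were 8.79, 8.52 and 8.77 in brm-1 hd2c-3, 7.47, 7.57 and 7.56 in brm-1, 8.48, 8.12 and 7.94 in hd2c-3, and 7.79, 8.26 and 7.97 in WT. Its control levels were 7.61, 7.67 and 7.70 in brm-1 hd2c-3, 7.95, 8.19 and 8.24 in brm-1, 7.48, 7.53 and 7.55 in hd2c-3, and 7.48, 7.26 and 7.61 in WT. In brm-1 the heat arrays were all below the control arrays, and in the other genotypes they were all above them. The heat difference was 1.04 ± 0.14 in the double mutant (adjusted p = 8.21e-06), -0.59 ± 0.14 in brm-1 (adjusted p = 0.00444), 0.66 ± 0.14 in hd2c-3 (adjusted p = 0.00146) and 0.56 ± 0.14 in WT (adjusted p = 0.00914). The WT call was lost without WT control replicate 2 (adjusted p = 0.0654) or WT heat replicate 2 (adjusted p = 0.0735).

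The heat response of UGT87A2 in brm-1 differed from that in WT by -1.15 ± 0.20 (adjusted p = 0.0116). It was the only UGT gene of 51 called in that difference of responses, in which 0.187% of all genes were called. For the double mutant, 0 of 51 were called, beside 1.47% of all genes, with 9 members at an unadjusted p under 0.05, and 1 UGT gene, UGT74F1, was called without brm-1 hd2c-3 control replicate 1. For hd2c-3, 0 of 51 were called, beside 0% of all genes, with 3 members at an unadjusted p under 0.05. In control, UGT87A2 was higher by 0.68 ± 0.14 in brm-1 than in WT (adjusted p = 0.00441). In heat it was higher by 1.16 ± 0.14 in the double mutant than in brm-1 (adjusted p = 2.55e-05), a 2.24-fold higher intensity. The double mutant was also called higher in heat than WT (0.69 ± 0.14, adjusted p = 0.0021) and than hd2c-3 (0.52 ± 0.14, adjusted p = 0.0322). With only the arrays compared in the fit, both of these calls were lost (adjusted p = 0.0534 and 0.305).

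**Figure D4:**
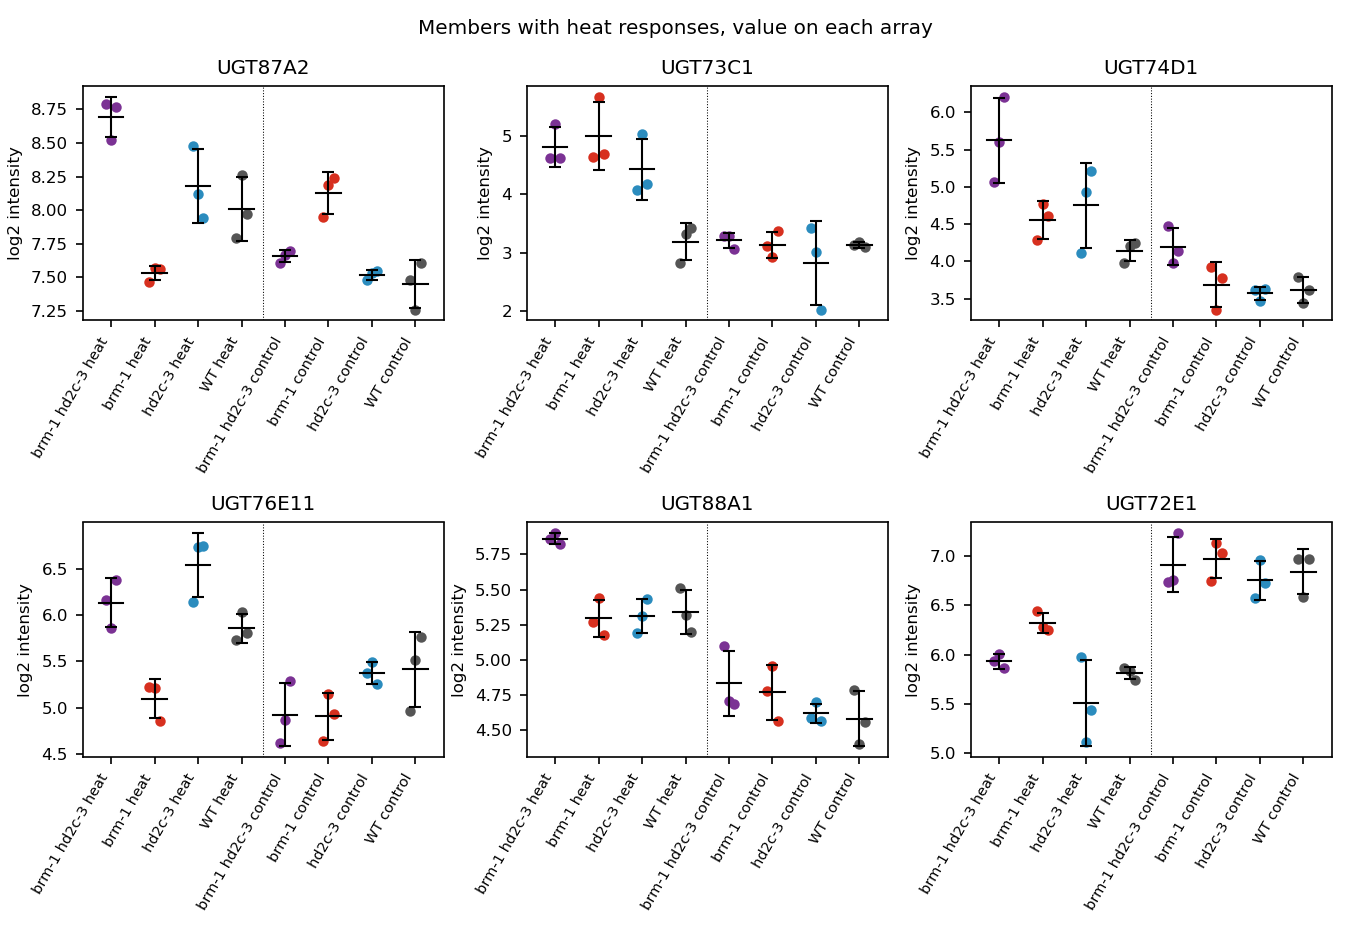
Log2 intensity on each array (points) with the group mean and SD (bars, 3 arrays a group) for 6 UGT genes that responded to heat, with heat to the left of the dotted line and control to the right. UGT87A2 in brm-1 is the one case here in which called heat responses of a gene point in opposite directions, at -0.59 in brm-1 and 1.04 in brm-1 hd2c-3.

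Where only hd2c-3 differed between genotypes, UGT genes were called between the double mutant and brm-1 in heat alone. In control, 0 of 51 were called between hd2c-3 and WT, beside 0.00604% of all genes, and 1 member had an unadjusted p under 0.05. Between the double mutant and brm-1 in control, 0 were called, beside 0.0423% of all genes, and 6 members had an unadjusted p under 0.05. In heat, 0 were called between hd2c-3 and WT, beside 0.598% of all genes, with 6 members at an unadjusted p under 0.05. Without hd2c-3 heat replicate 1, 4 were called there, all higher: UGT73B4, UGT73C1, UGT74D1 and UGT76E11. In heat, 6 UGT genes (11.8% of the members) were higher in the double mutant than in brm-1 and 0 were lower. Of all genes, 4.8% were called there, 2.78% higher and 2.02% lower. They were UGT71B5 (0.74 ± 0.19), UGT74D1 (1.07 ± 0.25), UGT76E11 (1.03 ± 0.21), UGT84A3 (0.76 ± 0.15), UGT87A2 (1.16 ± 0.14) and UGT88A1 (0.57 ± 0.14). Of these, UGT76E11 and UGT87A2 remained called when only the 6 arrays of both groups were fitted. With the mean of its probe sets, UGT74D1 differed by 0.41 (adjusted p = 0.26).

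Across all genotypes, 4 UGT genes changed the same way with heat, which is 7.84% of the members, beside 6.15% of all genes. Of these, 1 was higher and 3 were lower in all 4 genotypes, beside 2.57% and 3.58% of all genes. UGT72B3 and UGT72E1 belong to a family whose members glucosylate monolignols and their aldehydes. In heat UGT72B3 differed by -0.82 ± 0.19 in the double mutant, -1.18 ± 0.19 in brm-1, -1.02 ± 0.19 in hd2c-3 and -1.06 ± 0.19 in WT. UGT72E1 had heat levels of 5.93, 6.01 and 5.86 against control levels of 6.74, 6.76 and 7.23 in brm-1 hd2c-3, and heat levels of 5.86, 5.83 and 5.74 against control levels of 6.97, 6.58 and 6.97 in WT. The heat and control arrays of both genotypes were well apart. Its heat difference was -0.98 ± 0.18 in the double mutant, -0.65 ± 0.18 in brm-1, -1.24 ± 0.18 in hd2c-3 and -1.03 ± 0.18 in WT, and the brm-1 call was lost without brm-1 control replicate 2 (adjusted p = 0.0717), brm-1 control replicate 3 (adjusted p = 0.0504) or brm-1 heat replicate 3 (adjusted p = 0.0518). Their relatives UGT72E2 and UGT72E3 were called in no comparison, with WT heat differences of 0.12 and 0.23.

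UGT80B1, a sterol glucosyltransferase, was lower in heat, with differences of -0.77 ± 0.14 in the double mutant, -0.93 ± 0.14 in brm-1, -0.96 ± 0.14 in hd2c-3 and -0.71 ± 0.14 in WT. It was called in no comparison of genotypes. UGT88A1 was higher in heat by 1.03 ± 0.14 in the double mutant, 0.53 ± 0.14 in brm-1, 0.69 ± 0.14 in hd2c-3 and 0.76 ± 0.14 in WT. The brm-1 call for UGT88A1 was lost without brm-1 control replicate 3 (adjusted p = 0.0662) or brm-1 heat replicate 2 (adjusted p = 0.0555). UGT88A1 heat levels of 5.86, 5.90 and 5.82 in brm-1 hd2c-3 were above those of brm-1 (5.27, 5.44 and 5.18), hd2c-3 (5.19, 5.31 and 5.43) and WT (5.51, 5.32 and 5.20) on every array. UGT89B1 was called higher in heat in the double mutant (0.50 ± 0.14), in hd2c-3 (0.49 ± 0.14) and in WT (0.42 ± 0.14, adjusted p = 0.0453, lost in 8 of 13 alternatives). UGT78D1, a flavonol rhamnosyltransferase, was lower in heat in the double mutant (-0.70 ± 0.14, adjusted p = 0.000823) and in WT (-0.46 ± 0.14, adjusted p = 0.0326), and UGT78D2 and UGT78D3 were called in no comparison.

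In the reference annotation, 35 members lie in 14 runs in which each UGT gene is at most 3 genes from the next, and 16 lie alone. Of the 21 neighbour pairs, 2 had both genes called the same way for brm-1 against WT in control, 0 had opposite calls, 9 had 1 gene called and 10 had none. The pairs called together were UGT85A7 with UGT85A2 and UGT85A2 with UGT85A5. For the double mutant against hd2c-3 in heat, 3 pairs were called the same way, all in the UGT85A run. Pairs along a run share genes, so they are not separate cases. Such counts were not made for neighbouring pairs of all genes, so whether UGT pairs stand out was not tested. UGT84A3 with UGT84A4, UGT76C2 with UGT76C1 and UGT73B5 with UGT73B4 are pairs in which 1 gene was called for brm-1 against WT in control and the other was not. For the heat response of brm-1, 2 pairs had opposite calls, UGT85A2 with UGT85A5 and UGT73B2 with UGT73B1. Probe sequences were not used here, so signal shared between close copies was not tested.

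**Figure D5:**
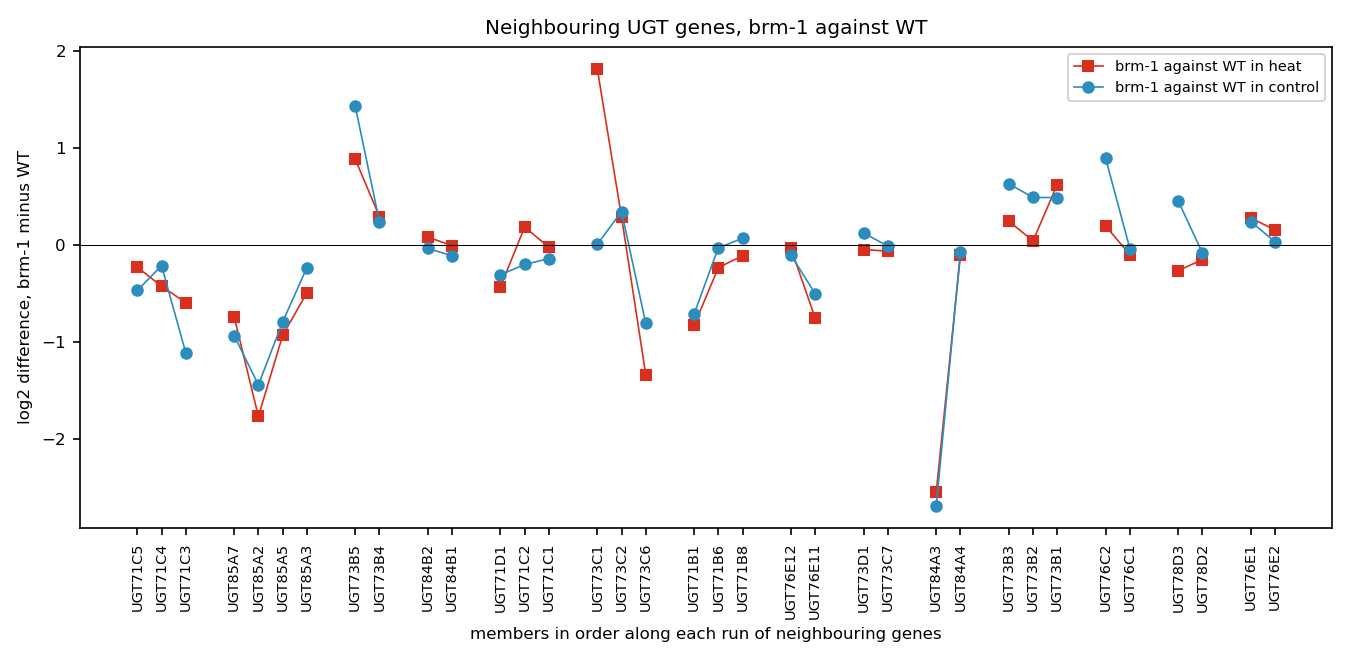
Log2 difference of brm-1 against WT in heat (squares) and in control (circles) for the 35 UGT genes that lie in 14 runs of neighbours, in order along each run, with lines joining neighbours. The run UGT85A7 to UGT85A3 is below 0 throughout, while UGT84A3 at -2.70 in control stands beside UGT84A4 at -0.07.

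More of the members with brighter probe sets were called than of those with dimmer ones. The median over all genes of the mean level was 3.28, and 24 UGT genes were above it and 27 at or under it. Of the 24, 20 were called in at least 1 comparison, and of the 27, 8 were. Among all genes 62.3% were called in no comparison, against 45.1% of the members, and the share over all genes was not taken by level. The called members were 5 of 10 in family 71, 2 of 4 in family 72, 6 of 10 in family 73, 3 of 3 in family 74, 2 of 8 in family 76, 1 of 3 in family 78, 1 of 4 in family 84 and 4 of 5 in family 85, and the members of families 80, 87, 88 and 89 were each called. Among the 23 genes called in no comparison, differences between groups ranged from -0.61 for UGT78D2 (the double mutant against hd2c-3 in control) to 0.63 for UGT73B3 (brm-1 against WT in control, adjusted p = 0.0569).

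Genes that supply acceptors of these enzymes were measured in part. Of 17 listed phenylpropanoid and sinapate genes, 2 have a named probe set. ALDH2C4, the dehydrogenase that makes ferulic and sinapic acid, was lower in heat, with differences of -1.04 ± 0.15 in the double mutant, -0.87 ± 0.15 in brm-1, -1.10 ± 0.15 in hd2c-3 and -0.99 ± 0.15 in WT, and was called in no comparison of genotypes. Unlike UGT84A3, it differed by -0.18 ± 0.15 between brm-1 and WT in control. HCT, a hydroxycinnamoyl transferase of lignin synthesis, was higher in heat in the double mutant (0.43 ± 0.11, adjusted p = 0.00676) and in WT (0.47 ± 0.11, adjusted p = 0.00534). Its heat differences of -0.03 ± 0.11 in brm-1 and 0.165 ± 0.11 in hd2c-3 were not called. After heat HCT was called higher in the double mutant than in brm-1 (0.55 ± 0.11, adjusted p = 0.00464) and than in hd2c-3 (0.40 ± 0.11, adjusted p = 0.0366). Of 9 listed flavonoid genes 3 have a named probe set, and all 3 were lower in brm-1 than in WT in control, with DFR, the dihydroflavonol reductase, at -2.28 ± 0.40 (adjusted p = 0.000849). The level of DFR had an SD of 1.16 over the brm-1 control arrays and 0.14 over the WT control arrays. These SDs were 0.92 and 0.3 for UF3GT, and 0.94 and 0.33 for AT5MAT. Alternative fits were not followed for genes outside the 51 members. One of the 3, UF3GT, is itself a UGT under another name and encodes an anthocyanin glycosyltransferase. In control it differed by -1.61 ± 0.40 in brm-1 against WT (adjusted p = 0.0176), and it was lower in heat in all genotypes, at -2.10 ± 0.40 in the double mutant, -1.90 ± 0.40 in brm-1, -2.52 ± 0.40 in hd2c-3 and -2.45 ± 0.40 in WT. It was not called for the double mutant against hd2c-3 in control (-1.18 ± 0.40, adjusted p = 0.13) or in heat (-0.77 ± 0.40, adjusted p = 0.329), nor for brm-1 against WT in heat (-1.06 ± 0.40, adjusted p = 0.147). Of 10 listed genes for hormone acceptors, 0 have a named probe set. By symbol or synonym, the reference table gives a numbered UGT name to 13 further genes, of which 4 have a named probe set under another name. Besides UF3GT these are SGT, GT72B1 and AT5G54010, which were called neither in a heat response nor in a comparison of brm-1 with WT or of the double mutant with hd2c-3. Their WT heat differences were 0.005 for SGT, 0.077 for GT72B1 and -0.041 for AT5G54010. The other 9, UGT84A1 and UGT84A2 among them, were not analysed here. Family members without a numbered UGT name were not searched for.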

How the data were processed

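Transcripts of 24 samples were measured on single-channel Affymetrix arrays. The deposited values are log2 intensities of 38408 probe sets, obtained with RMA in Partek as far as GEO's processing notes from the authors list tools. Versions and a genome build are not given in the sources used here. The platform table names 1 gene for 16746 probe sets, several for 758 and none for 20904, and only the first kind was used, as 16554 genes. RMA usually includes quantile normalization, which gives all arrays like distributions, so a shift common to most genes would not be seen.

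The values were used as deposited. limma 3.58.1 in R 4.3.3 fitted a mean per group over all 24 arrays, with 16 residual and 6.25 prior degrees of freedom, and 17 contrasts were tested two-sided with Benjamini-Hochberg adjustment over all genes. The script was tested on simulated data. The submitters call the replicates biological and give no separate growths for them, and p-values measure only the spread between these arrays. Figures were drawn with matplotlib 3.10.9.

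The members, gene lists and tests were chosen with earlier results of these data known. The rule for naming genes took UGT84A3 and UGT87A2 in every contrast, and members called between genotypes or in a difference of heat responses. It also took members called in all 4 heat responses, and the 5 largest called rises and falls in each genotype. The text gives a part of the results that this rule covers. Other members are given by family. Neighbours came from a RefSeq gene table, used for names and gene order only. Alternatives were other scalings (equal medians, cyclic loess), array weights, a replicate block, all probe sets, means of a gene's probe sets, brighter genes only, only the arrays compared, and leaving out each array.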

Additional observations from a re-analysis of the deposited data

Results flagged for a closer look

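The heat response of UGT87A2 in brm-1 was opposite to that in WT, with a heat difference of -0.59 ± 0.14 in brm-1 against 0.56 ± 0.14 in WT, and the difference of the responses was -1.15 ± 0.20 (limma, adjusted p = 0.0116). It was picked out because a response under the same contrast differed between 2 genotypes by a test of the difference itself. In brm-1 the gene was higher before heat, at a mean of 8.13 ± 0.15 in brm-1 control against 7.45 ± 0.18 in WT control (SD, n = 3 each). In heat the means were 7.53 ± 0.05 in brm-1 and 8.0 ± 0.24 in WT, and that difference of -0.47 ± 0.14 was not called (adjusted p = 0.0543).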

How the results depend on the processing

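Of 136 differences of single UGT genes followed through 1921 alternative fits, 119 were called, 69 of these kept their call in every alternative run for them, and 0 of the called differences changed direction. Of the uncalled ones, 5 small differences of UGT84A3 and UGT87A2 crossed 0. The calls for UGT84A3 in the 4 comparisons of brm-1 with WT and of the double mutant with hd2c-3 held in every alternative, as did the heat calls of UGT73C1 and the difference of heat responses of UGT87A2. Heat calls outside the naming rule were not followed gene by gene, so their stability is not known. Among these are the heat calls of UGT71C5 and UGT78D1 in WT, UGT73B4 in hd2c-3 and UGT74F1 in the double mutant. The count for hd2c-3 against WT in heat was 0, and it became 1 (UGT73C1) with equal array medians, with cyclic loess, with the replicate block and with only genes above the median gene mean. With only the arrays of the groups compared, the heat count of 14 for the double mutant became 8 against WT and 4 against hd2c-3, and that of 6 against brm-1 became 2. For the difference of heat responses of brm-1 from WT the count of 1 became 2 with array weights and with only genes above the median gene mean, the addition being UGT73C1. For the double mutant the count of 0 became 1 with array weights, with only genes above the median gene mean and with only the arrays compared. Leaving out single arrays gave ranges of 12 to 16 (double mutant), 10 to 13 (brm-1), 12 to 16 (hd2c-3) and 7 to 9 (WT) for the heat responses. In control it gave 9 to 13 for brm-1 against WT, 6 to 7 for the double mutant against WT and 6 to 7 against hd2c-3. In heat it gave 6 to 9 for brm-1 against WT, 9 to 13 for the double mutant against WT, 10 to 13 against hd2c-3, 4 to 8 against brm-1, and 0 to 4 for hd2c-3 against WT, the 4 without hd2c-3 heat replicate 1. For the double mutant's difference of heat responses it gave 0 to 1. The fits with fewer arrays have fewer residual degrees of freedom, and the other causes were not tested. Over 84 pairs of same-numbered arrays, the correlation of deviations from the group means ranged from -0.225 to 0.409 with a median of 0.032, against -0.02 for other numbers, and 23 pairs were above 0.1. Not every pair passed 0.1, so the numbers were not taken to pair the arrays. The replicate block otherwise kept the counts within 1.5 times. Dim probe sets limit what can be called, since 16 members had a mean level under 2, and 3 arrays a group limit the precision.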
